A study of Rattus norvegicus with 6 samples.

Results

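The homeobox patterning factors are transcription factors that bind DNA through a homeodomain, or, in some *Pax* genes, through a paired domain, and that give cells their position along the body axes. The members were every row of the expression tables whose symbol starts with Hoxa, Hoxb, Hoxc, Hoxd, Dlx, Lhx, Pax, Nkx, Otx, Emx, Meis, Pbx, Irx, Msx, Vax, Prrx or Pou3f followed by a digit, together with *Otp* and the numbered genes of the sine oculis family. Apart from genes not reported here, they were 89 of the 17315 rows. RNA-seq was performed on the rat hippocampus-derived neural stem cell (NSC) line HCN, cloned from the hippocampus of adult rats. The cells were transfected with a control Stealth siRNA duplex (siControl) or with 1 duplex against *Derl1* (siDerl1), which encodes the endoplasmic reticulum protein Derlin-1. RNA of all 6 samples was taken after 2 days with BMP4, a growth factor used to bring these cells into quiescence, and no sample without BMP4 or without siRNA is used here. Each group had 3 samples that carry the numbers 1, 2 and 3 in both groups, so each number holds 2 samples. The sources do not say that the samples came from separate cultures, so p-values measure only the spread between these samples. Because the line is 1 clone, the values describe that line and not the hippocampus of different animals.

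Homeobox genes of the *Hox* clusters are read in order along each cluster and mark the hindbrain, spinal cord and trunk, and the adult forebrain normally lies in front of their domain. *Dlx*, *Emx*, *Otx*, *Lhx2*, *Six3*, *Vax* and *Otp* mark parts of the forebrain, *Meis* and *Pbx* encode partner proteins that bind DNA together with Hox proteins, and *Msx* and several *Dlx* genes are classic targets of BMP signals in the dorsal neural tube, neural crest and limb. Polycomb proteins keep many of these genes silent in cells where they are not used, and retinoic acid activates the genes at the 3′ end of *Hox* clusters.

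Expression is given as TPM, a share of all transcripts that is corrected for transcript length, so that levels of different genes can be set side by side. TPM keeps no read numbers, and the sequencing depth of the samples is therefore unknown. The number of genes above 0 ranged from 11641 to 11808 per sample. In bulk RNA, fewer cells that express a gene cannot be told apart from less RNA in each cell. The targeted gene *Derl1* was at 127 ± 5.19 TPM in siControl and 63.2 ± 16.0 TPM in siDerl1 NSCs (SD, n = 3 each), without overlap. The stem cell genes *Sox2*, *Nes* and *Vim* had mean levels of 497.8, 114 and 4304 TPM over the 6 samples. Of the oligodendrocyte lineage genes, *Sox10* had a mean of 652 TPM, *Mag* one of 0.562 TPM, and *Mog* and *Mobp* were at 0. Of the astrocyte genes, *S100b*, *Slc1a3*, *Gfap*, *Gja1* and *Slc1a2* had means of 536, 69.3, 43.8, 5.70 and 2.99 TPM, while *Aqp4* and *Aldh1l1* stayed at or under 0.20 TPM in every sample. Samples of the same number varied together, and both samples numbered 1 stood apart from the others, so the members that the results turn on are given by siRNA and by sample number.

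Of the 89 members, 45 (50.6%) were expressed, defined as a mean of at least 1 TPM over the 6 samples, against 59.7% of all rows. There were 42 members at 1 TPM or more in every sample, 29 with a mean of at least 10 TPM and 16 between 1 and 10 TPM. The median level of the 45 was 14.5 TPM, against 33.5 TPM for all 10331 expressed rows. *Hoxc4*, with a mean of 1.13 TPM, was the member just inside the limit, and *Nkx1-2*, at 0.955 TPM, the member just outside it. *Hoxd1* passed the limit with a siDerl1 mean under 1 TPM and *Hoxc4* with a siControl mean under 1 TPM. By family, the expressed members were 5 of 5 *Dlx*, 3 of 3 *Meis*, 4 of 4 *Pbx*, 3 of 4 *Pou3f*, 4 of 6 *Irx*, 4 of 7 *Lhx*, 2 of 3 *Msx*, 2 of 9 *Pax* and 2 of 10 *Nkx*. Of the sine oculis family *Six2*, *Six3* and *Six4* were expressed and *Six6* was not, while *Emx2*, *Otx1* and *Vax2* were expressed and *Otx2*, *Vax1*, *Otp* and both *Prrx* genes were not. The 25 *Hox* members had 9 expressed, against 36 of the 64 outside the *Hox* clusters. Summed over the members, the level ranged from 901 to 1504 TPM per sample, and the *Dlx* family made up 41.1% of the summed mean, from 27.2% in siDerl1 sample 1 to 44.9% in siControl sample 2.

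**Figure D1:**
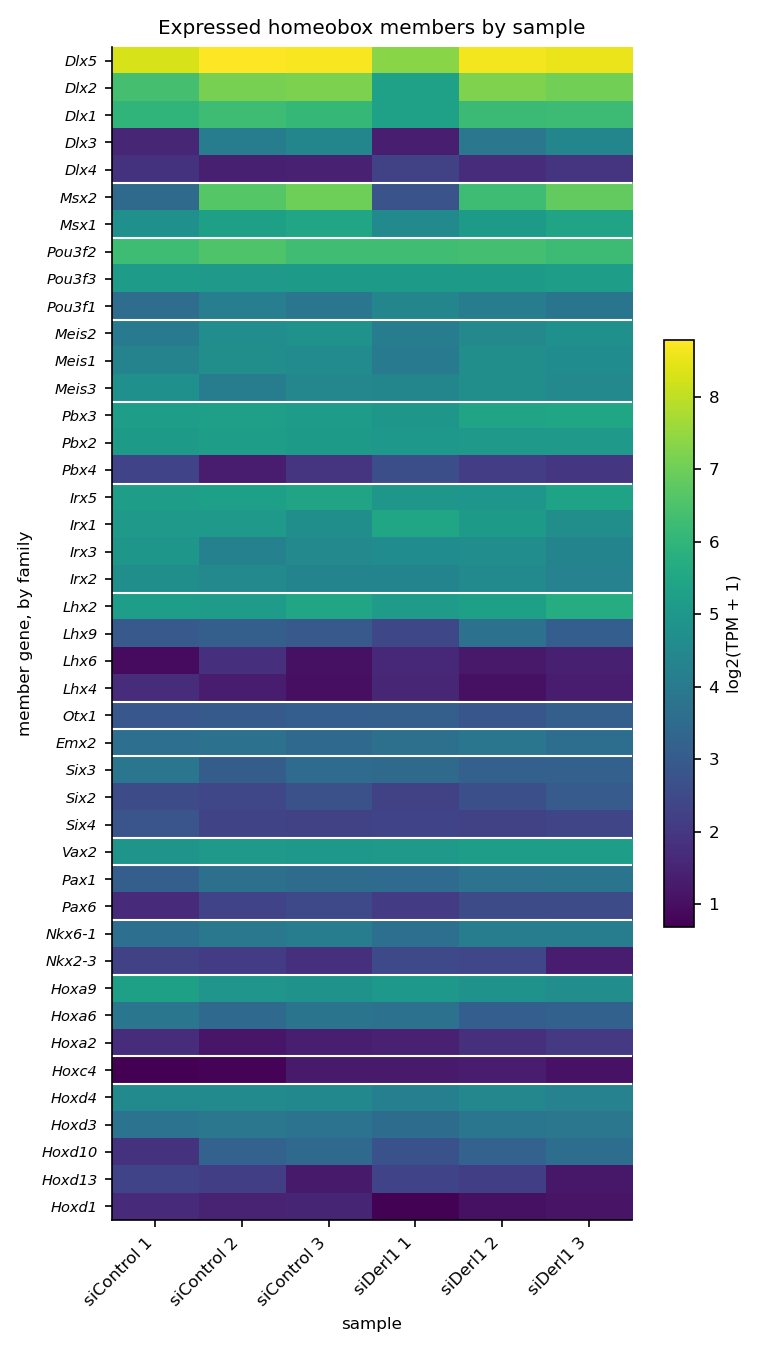
Level of 43 expressed members, as log2(TPM + 1) in colour, in the 3 siControl and 3 siDerl1 samples (columns), with genes grouped by family (rows). *Dlx5* is the brightest row, with values from 163 to 439 TPM, and *Msx2* and *Dlx3* are dark in both samples numbered 1.

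The *Dlx* genes, which encode Distal-less factors of the ventral forebrain, branchial arches and limb, held the 2 highest levels. *Dlx5* was at 314, 439 and 418 TPM in siControl samples 1, 2 and 3 and at 163, 394 and 372 TPM in the siDerl1 samples of the same numbers. It was the highest member, and 96.1% of the expressed rows had a lower mean. In both groups sample 1 was the lowest, and the groups overlapped. *Dlx2* was at 82.2, 137 and 144 TPM in siControl and at 38.8, 147 and 132 TPM in siDerl1 NSCs. *Dlx1*, which lies next to *Dlx2* in the GRCr8 assembly with no protein-coding gene between, was at 62.1, 76.3 and 67.2 TPM in siControl and at 38.7, 73.1 and 74.4 TPM in siDerl1 NSCs. For both genes the siDerl1 sample 1 was the lowest of all and the other siDerl1 samples lay close to the siControl samples of the same numbers. *Dlx3* was at 1.95, 15.9 and 20.2 TPM in siControl and at 1.56, 14.0 and 20.03 TPM in siDerl1 NSCs. Its neighbour in GRCr8, *Dlx4*, had its highest value in sample 1 of each group, at 2.66 and 3.73 TPM, and lay between 1.63 and 2.82 TPM in the other 4. Within each group sample 1 was thus the lowest for *Dlx3* and the highest for *Dlx4*. Across the groups the *Dlx4* values overlapped, with siControl sample 1 at 2.66 TPM below siDerl1 sample 3 at 2.82 TPM. Sample number was past the test only for *Dlx3* (adjusted p = 1.5e-05 against 0.382, limma F test).

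The *Msx* genes encode repressors that are induced by BMP signals. *Msx2* was at 10.2, 98.7 and 128 TPM in siControl and at 5.76, 76.4 and 113 TPM in siDerl1 NSCs. Both samples numbered 1 were far below the other 4, with no overlap, while within each number the siDerl1 sample was the lower one. *Msx1* was at 26.0, 38.3 and 43.8 TPM in siControl and at 22.5, 33.5 and 41.5 TPM in siDerl1 NSCs. It followed the same order of numbers over a narrower range. *Msx3* did not pass 0.20 TPM in any sample. The promoters of *Msx1* (chr14:77185552-77185851, + strand) and *Msx2* (chr17:11102034-11102333, + strand) are shown because these genes separated the samples by number together. The windows, from RefSeq in the GRCr8 build, run 5′ to 3′ from 250 bases before to 50 bases after the gene's start, with CpG dinucleotides in capitals.
Msx1: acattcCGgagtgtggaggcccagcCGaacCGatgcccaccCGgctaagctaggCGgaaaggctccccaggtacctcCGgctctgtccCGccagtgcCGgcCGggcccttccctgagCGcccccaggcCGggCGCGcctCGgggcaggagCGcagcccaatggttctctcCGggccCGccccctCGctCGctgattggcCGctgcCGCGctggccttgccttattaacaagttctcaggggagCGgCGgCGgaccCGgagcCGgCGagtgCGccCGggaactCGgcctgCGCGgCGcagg
Msx2: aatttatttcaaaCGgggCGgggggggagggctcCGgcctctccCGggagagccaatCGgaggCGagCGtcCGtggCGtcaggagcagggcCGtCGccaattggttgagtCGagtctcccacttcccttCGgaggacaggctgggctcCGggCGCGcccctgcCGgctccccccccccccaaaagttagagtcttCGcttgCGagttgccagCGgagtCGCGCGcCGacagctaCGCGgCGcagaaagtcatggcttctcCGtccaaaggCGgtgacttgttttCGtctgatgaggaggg
The *Msx1* window holds 34 CpG and has a GC content of 73.0%, and the *Msx2* window holds 30 CpG and has a GC content of 65.3%. Over all 33469 promoter windows of the table the median was 7 CpG and a GC content of 51.7%. The sequence GGCGCC, a GC-rich motif bound by BMP-activated Smad proteins, is in neither of the 2 windows, which says only that these letters are not there.

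The *Hox* members that were expressed came mostly from the *Hoxa* and *Hoxd* clusters. In the *Hoxd* cluster 5 of 7 members were expressed, in the *Hoxa* cluster 3 of 4, in the *Hoxc* cluster 1 of 7 and in the *Hoxb* cluster 0 of 7. The 6 members *Hoxb3*, *Hoxb4*, *Hoxb5*, *Hoxb7*, *Hoxb8* and *Hoxb9* were listed at 0 in all 6 samples, and the highest value of the remaining one, *Hoxb13*, was 0.74 TPM. *Hoxd4* was at 22.0, 22.6 and 20.9 TPM in siControl and at 17.2, 20.6 and 18.3 TPM in siDerl1 NSCs, and every siDerl1 value lay below every siControl value. Next to it *Hoxd3* had a mean of 12.8 TPM (10.6 to 13.9 TPM), and farther along *Hoxd9* had 0.917 TPM, *Hoxd10* 7.72 TPM, *Hoxd12* 0 and *Hoxd13* 2.97 TPM. The levels thus did not fall or rise steadily along the cluster.

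**Figure D2:**
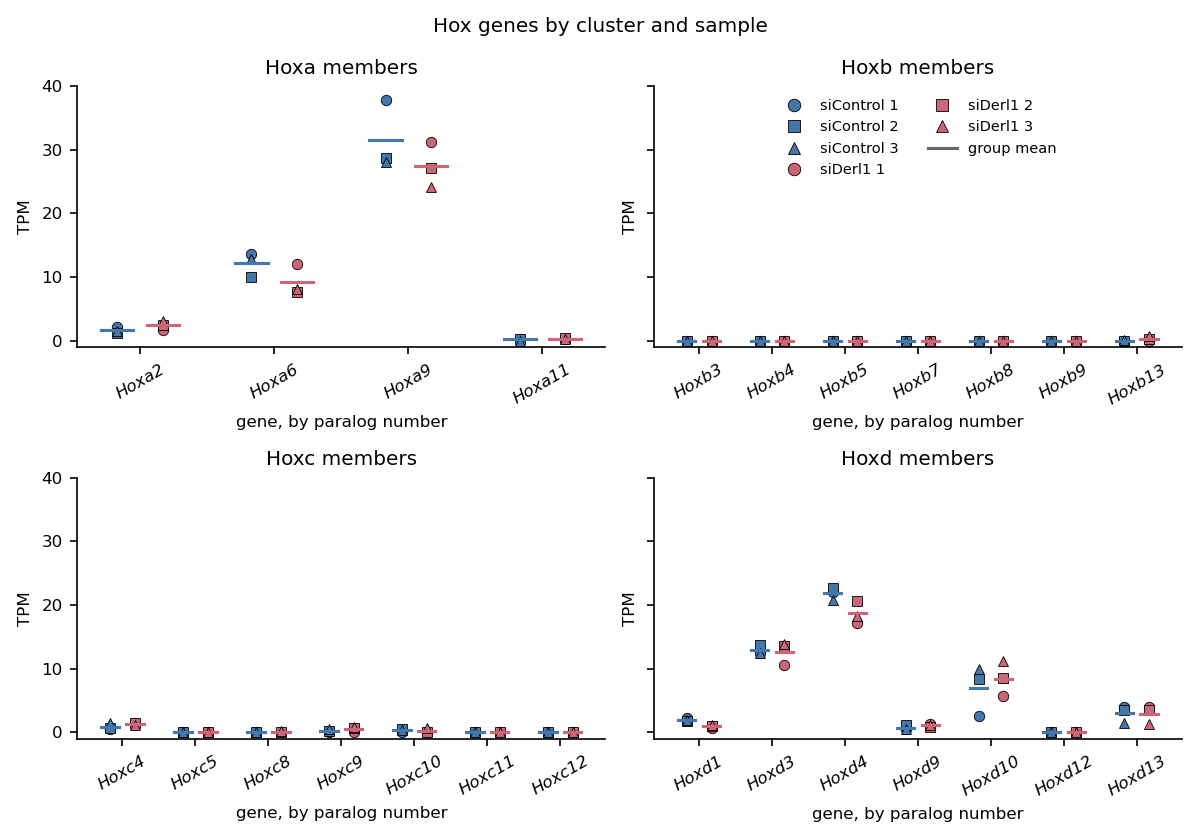
TPM of the 25 *Hox* members in each sample, by cluster and paralog number, with siControl in blue and siDerl1 in red, sample numbers as symbols and group means as lines. The *Hoxa* and *Hoxd* panels hold all values above 1.48 TPM, up to 37.8 TPM, while the *Hoxb* members stayed at or under 0.74 TPM.

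The row named *Hoxa9* had the highest level of the *Hox* members, with a mean of 29.5 TPM (24.1 to 37.8 TPM). Its identifier, NM_001109233, belongs to *Hoxa7* in the RefSeq table of GRCr8, so which of these neighbouring genes the row stands for is uncertain. *Hoxa6*, a trunk-level *Hox* gene, was at 13.7, 10.1 and 12.9 TPM in siControl and at 12.1, 7.63 and 8.13 TPM in siDerl1 NSCs. The siDerl1 sample was the lower one at each number, and the groups overlapped. *Hoxa2*, which patterns the hindbrain, had a mean of 2.07 TPM (1.28 to 3.11 TPM), and *Hoxa11*, a limb gene, stayed at or under 0.50 TPM.

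*Hoxd10* and *Hoxd13*, from the 5′ part of the cluster that patterns limb and posterior trunk, varied with sample number in different ways. *Hoxd10* was at 2.65, 8.40 and 9.90 TPM in siControl and at 5.66, 8.49 and 11.2 TPM in siDerl1 NSCs, lowest in sample 1 of both groups. *Hoxd13* was at 4.0, 3.51 and 1.43 TPM in siControl and at 4.0, 3.56 and 1.3 TPM in siDerl1 NSCs, lowest in sample 3 of both groups and nearly equal between siRNAs at each number. *Hoxd1*, at the 3′ end of the cluster, was at 2.21, 1.84 and 1.88 TPM in siControl and at 0.68, 1.06 and 1.17 TPM in siDerl1 NSCs. Every siDerl1 value of *Hoxd1* lay below every siControl value, and the order of the numbers differed between the groups. The promoters of *Hoxd10* (chr3:80001697-80001996, + strand) and *Hoxd1* (chr3:80072791-80073090, + strand) are shown as 2 genes of 1 cluster, of which the first differed by sample number and the second had siRNA groups that did not overlap, with CpG again in capitals.
Hoxd10: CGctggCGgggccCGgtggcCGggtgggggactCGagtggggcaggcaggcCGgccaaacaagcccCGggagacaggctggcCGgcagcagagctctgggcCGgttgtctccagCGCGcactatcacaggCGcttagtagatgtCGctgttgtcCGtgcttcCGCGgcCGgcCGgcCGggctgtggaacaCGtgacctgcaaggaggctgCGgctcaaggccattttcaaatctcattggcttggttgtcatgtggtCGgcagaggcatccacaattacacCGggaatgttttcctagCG
Hoxd1: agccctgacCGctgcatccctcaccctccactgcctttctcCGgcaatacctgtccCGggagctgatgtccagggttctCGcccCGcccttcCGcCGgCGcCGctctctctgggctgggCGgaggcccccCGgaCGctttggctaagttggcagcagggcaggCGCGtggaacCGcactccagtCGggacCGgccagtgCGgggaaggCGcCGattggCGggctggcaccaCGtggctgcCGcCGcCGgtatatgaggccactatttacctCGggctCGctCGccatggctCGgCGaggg
The *Hoxd10* window holds 24 CpG and the *Hoxd1* window 30. GGCGCC occurs in the *Hoxd1* window at positions 97 and 207, counted from 1 at its 5′ end, and not in the *Hoxd10* window.

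The partner proteins of Hox factors were expressed throughout. *Pbx3* and *Pbx2* had means of 36.9 and 32.7 TPM, and *Pbx4* had 3.32 TPM. *Pbx2* was at 33.5, 35.3 and 33.0 TPM in siControl and at 30.8, 32.3 and 31.5 TPM in siDerl1 NSCs, a narrow range in which the groups did not overlap. *Meis1*, *Meis2* and *Meis3* had means of 21.6, 21.7 and 21.6 TPM, which do not differ beyond their spread. *Meis2* was at 14.8, 24.4 and 27.4 TPM in siControl and at 15.8, 21.6 and 26.1 TPM in siDerl1 NSCs, lowest in sample 1 of both groups. Of the Iroquois genes, which belong to the same TALE class of homeodomain proteins, *Irx5*, *Irx1*, *Irx3* and *Irx2* had means of 36.1, 31.6, 22.9 and 20.98 TPM. Their neighbours in GRCr8 were not expressed: *Irx6*, next to *Irx5*, was at 0 in all samples and *Irx4*, next to *Irx2*, stayed at or under 0.21 TPM.

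The POU factors of neural progenitors that were expressed overlapped between siRNAs. *Pou3f2* (Brn2) was at 76.9, 92.6 and 77.7 TPM in siControl and at 77.5, 81.1 and 74.7 TPM in siDerl1 NSCs, the third highest level among the members. *Pou3f3* lay between 32.6 and 35.4 TPM and *Pou3f1* between 10.9 and 20.01 TPM, while *Pou3f4* stayed at or under 0.76 TPM. Sample number was not past the test for *Pou3f2* or *Pou3f3* (adjusted p = 0.277 and 0.909, limma F test).

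Of the factors of the forebrain and eye field, *Lhx2*, which specifies cortex and hippocampus, had a mean of 39.3 TPM (33.8 to 51.0 TPM), *Emx2*, a factor of the hippocampal primordium, 11.7 TPM (10.03 to 13.5 TPM), *Six3* 9.64 TPM (7.45 to 13.6 TPM) and *Otx1* 7.12 TPM (6.22 to 7.87 TPM). *Pax6*, a regulator of dorsal telencephalic progenitors, had 3.96 TPM (2.24 to 4.88 TPM). *Otx2*, *Nkx2-1*, *Lhx8* and *Six6*, which are used in the ventral forebrain or eye, were at 0 in all samples. *Vax2*, a ventral eye factor, was at 28.7, 31.5 and 30.8 TPM in siControl and at 31.9, 35.5 and 35.5 TPM in siDerl1 NSCs, and was the single expressed member whose siDerl1 values all lay above the siControl values. *Nkx6-1*, a ventral spinal cord factor, had 14.2 TPM (11.5 to 16.2 TPM). *Pax1*, a gene of the sclerotome, had 11.1 TPM (7.83 to 13.0 TPM).

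The other 44 members had a mean under 1 TPM. Of these, 22 were listed at 0 in all 6 samples, 17 were detected but stayed under 1 TPM in every sample, and 5 reached 1 TPM in some sample. The 5 were *Hoxd9*, *Nkx1-2*, *Pax4*, *Prrx2* and *Vax1*, with highest values of 1.37, 2.46, 1.47, 1.01 and 1.17 TPM. *Pax2*, *Pax3*, *Pax5*, *Pax7* and *Pax8*, which mark midbrain, hindbrain, spinal cord and neural crest, did not pass 0.34 TPM. *Prrx1*, a mesenchymal factor, did not pass 0.57 TPM.

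To see which members followed the sample number, a model with siRNA and number was fitted to all 10331 expressed rows with limma on log2(TPM + 1), and the number was tested with an F test. With an adjusted p under 0.05, 10 of the 45 expressed members differed by number (22.2%), where 10.6% of all rows did. The 8 described here were *Msx2*, *Dlx3*, *Msx1*, *Dlx2*, *Meis2*, *Dlx5*, *Hoxd10* and *Hoxd13*, in order of p. In 9 of the 10 both samples numbered 1 were below the other 4 (20% of members, 5.47% of all rows). In *Hoxd13* they were above the other 4 (2.22% of members, 4.09% of all rows). The largest difference was that of *Msx2*, which was higher in number 2 than in number 1 by 3.34 and in number 3 by 3.80 on the log2 scale (standard error 0.13, adjusted p = 5.95e-07). *Dlx3* was higher by 2.53 and 2.94 (standard error 0.17), *Dlx2* by 1.32 and 1.27 (adjusted p = 0.00704) and *Dlx5* by 0.88 and 0.80 (adjusted p = 0.0132). *Msx1* was higher by 0.55 and 0.79 (adjusted p = 0.00301) and *Meis2* by 0.56 and 0.77 (adjusted p = 0.0101). *Hoxd13* was lower by 1.08 in number 3 than in number 1 (adjusted p = 0.0312) and by 0.14 in number 2. Regardless of the test, both samples numbered 1 lay below the other 4 in 15 members (33.3%, against 17% of all rows) and above them in 4 (8.89%, against 15.7%). Instead of 10 members past the test there were 5 of 67 when low rows were kept in the fit (7.46%, against 4.61% of all rows), 4 of 45 when the trend of the spread with the level was not modelled (8.89%, against 2.44%) and 11 of 34 at a mean of at least 5 TPM (32.4%, against 12.1%). The number stands for whatever samples of the same number shared, which the sources do not name.

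**Figure D3:**
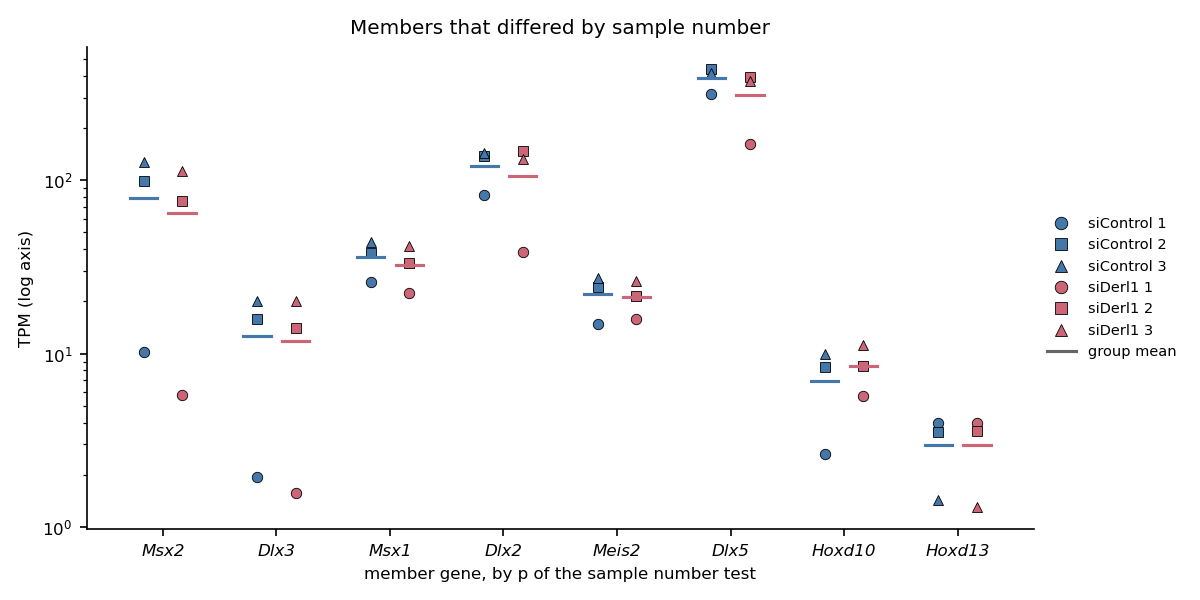
TPM (log axis) of 8 members with an adjusted p under 0.05 for sample number, with siControl in blue and siDerl1 in red, numbers as symbols and group means as lines. Circles, the samples numbered 1, lie lowest for 7 genes in both groups, and for *Hoxd13* the triangles, numbered 3, lie lowest.

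Several genes of other lists varied with the number in the same samples. Of the other regional factors, *Cux2* was at 74.1 and 64.6 TPM in samples 1 and between 195 and 239 TPM in the other 4, and *Sp9* was at 32.8 and 18.5 TPM in samples 1 and between 64.6 and 82.9 TPM in the others. The glial factor *Sox9* was at 7.50 and 9.42 TPM in samples 1 and between 34.7 and 38.3 TPM in the others, while the glial protein *S100b* was at 679 and 708 TPM in samples 1 and between 445 and 467 TPM in the others. Of the 5 expressed astrocyte genes 4 differed by number (80%, against 10.6% of all rows). *S100b* was higher in samples 1 and so was *Gfap* within each siRNA, while *Slc1a3* and *Slc1a2* were lower, *Slc1a3* at 52.1 and 47.9 TPM in samples 1 against 69.7 to 83.5 TPM in the others. Of the 7 stem cell markers 5 differed by number too (against 10.6% of all rows). *Sox9*, listed among these, and *Vim* were lower in both samples 1. *Vim* was at 3008 and 3386 TPM there against 4644 to 5044 TPM in the others. *Fabp7* was higher, at 196 and 220 TPM against 97.3 to 132 TPM. Of 3 expressed oligodendrocyte markers 1 differed, *Sox10*, which was higher in samples 1, and of 4 neuronal markers 0 did. These genes were named after their values were seen, and their part in the differences of the members was not tested.

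The comparison of siDerl1 with siControl NSCs asks which of the members respond to the knockdown. No member had an adjusted p under 0.05 with limma, and none of the 10331 rows did. At an unadjusted p under 0.05 there was 1 member, *Hoxd1*, which was lower in siDerl1 NSCs, and 0 were higher, where 4.03% of all rows were lower and 2.67% higher. *Hoxd1* was also the only member past the limits used in the study (a ratio of mean TPM above 1.5 or below 0.8 with an unadjusted p under 0.05), that is 1 of 45 lower, or 2.22%, against 1.49% of all rows, and 0 of 45 higher, against 0.716%. The median log2 fold change of the 45 was −0.02, with 21 of them higher in siDerl1 NSCs, and the median of all rows was −0.02. The share of members called was thus near that of all genes. *Hoxd1* had a log2 fold change of −0.60 (standard error 0.22, unadjusted p = 0.0279, adjusted p = 0.704), and a ratio of means of 0.491. Its means were 1.98 TPM in siControl and 0.97 TPM in siDerl1 NSCs. It thus reached the mean of 1 TPM only through the group where it was higher, and its calls, with or without the block, are a description only. With log2 of TPM + 1 the change of such a low gene is understated. The unadjusted call of *Hoxd1* was lost on leaving out any siControl sample, or siDerl1 sample 1 or 2, with a log2 fold change between −0.64 and −0.49 in those fits.

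Sample number was also added as a block, so that each siDerl1 sample is set against the siControl sample of the same number. For numbers 2 and 3 this pairing rests on the labels, since the values hardly told these numbers apart. With the block 5 members were lower at an unadjusted p under 0.05 (11.1%, against 8.88% of all rows) and 0 were higher (against 6.84%). Among them were *Msx2*, *Dlx5*, *Hoxa6* and *Hoxd1*. Of the 5, 4 passed the limits of the study, *Msx2* being the exception with a ratio of 0.825, so that 8.89% of the members were lower by these limits, against 2.57% of all rows, and 0 were higher, against 1.66%. None had an adjusted p under 0.05 in this fit, the smallest being 0.123 for *Msx2*, while 0.358% of all rows were lower and 0.194% higher by that rule. *Msx2* had a log2 fold change of −0.42, with a standard error of 1.26 without the block and 0.10 with it. It differed by −0.72, −0.37 and −0.17 in numbers 1, 2 and 3. *Dlx5* differed by −0.95, −0.16 and −0.17, for a log2 fold change of −0.42 (standard error 0.13 with the block, adjusted p = 0.182) and a ratio of 0.792. The unadjusted call of *Dlx5* was lost with the block when the trend of the spread was not modelled (unadjusted p = 0.0738 in limma), and without siDerl1 sample 1 its log2 fold change, in the fit without the block, was −0.01. *Hoxa6* differed by −0.17, −0.36 and −0.61 (ratio 0.760 from means of 12.2 ± 1.92 and 9.28 ± 2.44 TPM, SD, n = 3).

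The difference between siRNAs was not the same at each number. In number 1 the median log2 difference of the 45 members was −0.20, against 0.01 for all rows, and it was 0.01 and −0.01 in numbers 2 and 3, against −0.03 and −0.03. *Dlx1* differed by −0.67, −0.06 and 0.14 and *Dlx2* by −1.06, 0.10 and −0.12 in numbers 1, 2 and 3. Whether the numbers differ in this respect was not tested, since each number holds 1 sample of each siRNA. In numbers 2 and 3 alone, *Msx2* differed by −0.37 and −0.17 and *Dlx5* by −0.16 and −0.17. The siDerl1 sample 1 also had the lowest *Derl1* level, at 44.9 TPM against 70.8 and 74.0 TPM in the other 2, and its part in these differences was not tested.

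**Figure D4:**
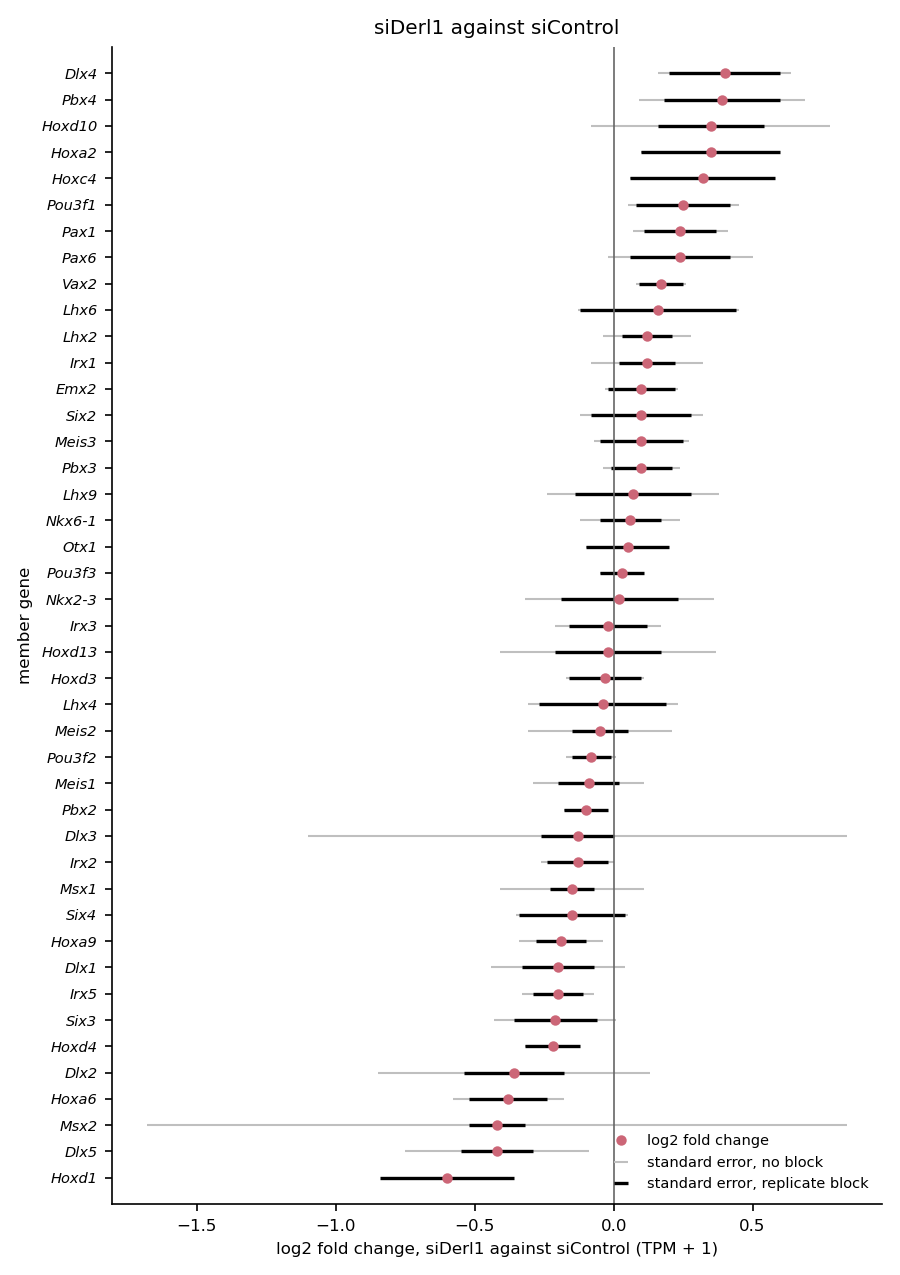
Log2 fold change of 43 expressed members in siDerl1 against siControl NSCs on log2(TPM + 1), as red points with standard errors without (grey) and with the replicate block (black). The points run from −0.60 for *Hoxd1* to 0.40 for *Dlx4*, and the block shortens the error of *Msx2* from 1.26 to 0.10.

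The groups did not overlap for 3 expressed members that were lower in siDerl1 NSCs, *Hoxd1*, *Hoxd4* and *Pbx2* (6.67%, against 8.52% of all rows), and for 1 that was higher, *Vax2* (2.22%, against 5.09%). *Hoxd1* counts as expressed only through its siControl samples, so its place among the 3 is a description only. For each of the 4 the exact permutation test gave a two-sided p of 0.1, the smallest that 3 against 3 samples allow. *Hoxd4* had means of 21.8 ± 0.889 and 18.7 ± 1.70 TPM (SD, n = 3), with a log2 fold change of −0.22 (standard error 0.10, adjusted p = 0.763). *Vax2* had means of 30.3 ± 1.47 and 34.3 ± 2.07 TPM (SD, n = 3), with a log2 fold change of 0.17 (standard error 0.09, adjusted p = 0.764). *Pbx2* had a log2 fold change of −0.10 (standard error 0.08, adjusted p = 0.846). In all 3 numbers, 12 members were lower in siDerl1 NSCs (26.7%, against 22.1% of all rows) and 7 were higher (15.6%, against 15.8%).

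Among the members under 1 TPM, which were not tested in the main fit, the groups did not overlap for *Otp*, *Vax1*, *Lhx1* and *Prrx2*, each with an exact permutation p of 0.1. That is 3 lower of the 22 members in this range (13.6%), against 2.25% of the 2492 rows in it, and 1 higher (4.55%), against 4.17%. *Otp*, a hypothalamic factor, was at 0.96, 0.56 and 0.34 TPM in siControl and at 0.19, 0 and 0 TPM in siDerl1 NSCs. *Vax1*, a factor of the ventral forebrain and optic nerve, had 1.17, 0.20 and 0.25 TPM in siControl NSCs and was listed at 0 in all 3 siDerl1 samples. *Lhx1* was at 0.67, 0.49 and 0.48 TPM in siControl and at 0.13, 0.41 and 0.25 TPM in siDerl1 NSCs. *Prrx2*, a mesenchymal factor, was at 0, 0.16 and 0.20 TPM in siControl and at 0.65, 1.01 and 0.82 TPM in siDerl1 NSCs, the only one of the 4 that was higher. In the fit over all rows above 0, *Prrx2*, *Otp*, *Lhx1* and *Hoxd1* passed the limits of the study, with unadjusted p values from 0.000806 for *Prrx2* to 0.0426 for *Lhx1* and adjusted p values from 0.627 to 0.736. That is 4 lower of 67 members (5.97%), against 1.62% of all rows in that fit, and 1 higher (1.49%), against 1.23%. The 4 include *Vax1*, as do the 3 lower of 22 above. *Vax1* was above 0 through its siControl samples alone and so had to differ, and these counts are a description only. With the block 6 were lower (8.96%, against 2.58%) and 2 higher (2.99%, against 2.12%), and the call of *Lhx1* was lost (unadjusted p = 0.0733 in limma). At these levels the depth, which is unknown, sets how many reads a value rests on.

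**Figure D5:**
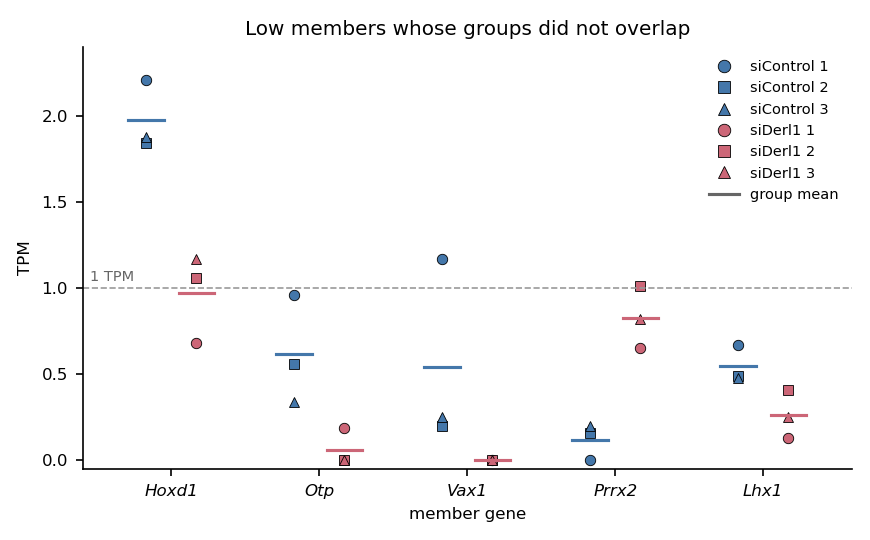
TPM in each sample of *Hoxd1* and of the 4 members under 1 TPM whose groups did not overlap, with siControl in blue and siDerl1 in red, numbers as symbols, group means as lines and 1 TPM dashed. Only *Prrx2* is higher in siDerl1 NSCs, with values of 0.65 to 1.01 TPM against 0 to 0.20 TPM.

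Genes that act on homeobox genes were counted beside the members. Of the 35 listed Polycomb and trithorax genes, 29 were found and all 29 were expressed. Their median log2 fold change was −0.01, and 0 passed the limits of the study with or without the block. At an unadjusted p under 0.05 there were 4 without the block (13.8%, against 6.7% of all rows), and with it 2 were higher (6.9%, against 6.84%) and 3 lower (10.3%, against 8.88%), none of them with an adjusted p under 0.05 (0 in limma in both fits). Sample number was past the test for 0 of the 29. Of the 18 listed retinoic acid genes, 17 were found and 10 expressed, with a median log2 fold change of −0.13. Of these 0 passed the limits in either fit, and 3 differed by sample number (against 10.6% of all rows), of which *Aldh1a3* and *Cyp26b1* were lower in both samples numbered 1. *Aldh1a3*, which makes retinoic acid and was picked out after its values were seen, was at 23.1, 49.2 and 36.4 TPM in siControl and at 13.3, 40.6 and 40.9 TPM in siDerl1 NSCs.

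Of the 43 other regional factors, 35 were found and 21 expressed, with a median log2 fold change of 0 to 2 decimals. *Nr2f2* passed the limits of the study without the block, at 9.83, 13.1 and 14.0 TPM in siControl and 8.26, 8.68 and 10.2 TPM in siDerl1 NSCs (log2 fold change −0.40, standard error 0.16, adjusted p = 0.736). With the block 4 of the 21 were lower by the limits (19%, against 2.57% of all rows), among them *Sp9* (adjusted p = 0.119), *Nr2f2* (adjusted p = 0.207) and *Gbx2* (adjusted p = 0.286), and 0 were higher. *En2* and *Gsx1* were named after their values were seen. *En2*, a factor of the midbrain and hindbrain boundary, had a mean of 23.2 TPM and *Gsx1*, a ventral progenitor factor, 66.2 TPM.

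Markers of other cell types were counted in the same way. Of 7 neuronal markers 4 were expressed (summed level 108 to 126 TPM in siControl and 115 to 135 TPM in siDerl1 NSCs), of 6 oligodendrocyte markers 3 (1069 to 1264 and 1034 to 1462 TPM), of 7 astrocyte markers 5 (577 to 783 and 574 to 829 TPM) and of 7 microglia markers 1 (3.73 to 4.43 and 3.80 to 5.72 TPM). All 7 stem cell markers were expressed (3978 to 5886 and 4406 to 5872 TPM). Of 9 mesenchymal markers 4 were expressed (63.3 to 93.9 and 58.5 to 68.7 TPM), with *Col3a1*, *Dcn* and *Lum* at 0 in every sample, and of 5 endothelial markers 0 were (0.12 to 0.59 and 0.16 to 0.71 TPM). *Pdgfra*, which oligodendrocyte progenitors also express, made up 69.8 of the 93.9 TPM of the mesenchymal sum in siControl sample 1, and *Twist1* lay between 18.8 and 26.0 TPM. *Pdgfra* was at 69.8, 43.9 and 37.2 TPM in siControl and at 42.5, 37.9 and 28.8 TPM in siDerl1 NSCs, lower at each number and past the limits with the block (adjusted p = 0.113). The stem cell gene *Hes5* and the astrocyte gene *Slc1a2* were higher by the limits with the block, with log2 fold changes of 0.94 and 0.53 (adjusted p = 0.231 and 0.248). The stem cell gene *Nes* lay the other way, at 137, 125 and 113 TPM in siControl and 111, 101 and 99.4 TPM in siDerl1 NSCs, without overlap (log2 fold change −0.26, adjusted p = 0.704, or 0.0899 with the block). *Gfap*, an astrocyte gene that NSCs also express, was at 47.0, 27.7 and 28.9 TPM in siControl and at 66.3, 47.5 and 45.3 TPM in siDerl1 NSCs, higher at each number (adjusted p = 0.704, or 0.0219 with the block). The neuronal *Dcx* was past the limits in both fits, at 8.83, 10.95 and 9.57 TPM in siControl and 6.38, 7.10 and 7.63 TPM in siDerl1 NSCs (adjusted p = 0.704). *Tubb3*, another neuronal gene, lay the other way, at 58.8, 74.9 and 70.4 TPM in siControl and 83.2, 76.3 and 76.3 TPM in siDerl1 NSCs, without overlap. The part of these cell type markers in the members' differences was not tested.

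A promoter window was found for 54 of the 89 members. Their median CpG content was high, but they ranged from 5 to 49 CpG, and at the first listed start site 6 of them, *Hoxc4*, *Lhx8*, *Meis3*, *Pax4*, *Pax6* and *Prrx1*, were at or under the median of all windows. The second windows of *Lhx8* and *Meis3* hold 30 and 16 CpG, and the counts here use the first window of each member. The median number of CpG was 20.5 in the 30 expressed members with a window, 17 in the 15 detected under 1 TPM and 17 in the 9 at 0 in all samples, against 7 in all windows. The ratio of observed to expected CpG was 0.71, 0.70 and 0.68 in the same classes and 0.39 in all windows, so members that were silent and members that were expressed hardly differed in this measure. Read on both strands, GGCGCC was in 22.2% of the members' windows and in 11% of all windows, TATAAA in 3.7% and 14.2%, and the palindrome TAATTA, which holds the core bound by many homeodomains, in 0% and 5.36%. These are matches of letters, not binding sites.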

How the data were processed

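The values the authors deposited are TPM, 1 table per sample with 17315 rows by symbol and RefSeq identifier, rounded to 2 decimals. Per the labels, reads from poly(A) libraries were trimmed with Trimmomatic 0.39, mapped to rn6 with STAR 2.7.3a and quantified with RSEM 1.3.2. RSEM can split reads between paralogs, so closely similar members are uncertain. Some genes are not reported here. The members and lists were chosen with earlier results of these data known.

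Rows with a mean of at least 1 TPM (10331) were fitted with limma 3.58.1 (run in R 4.3.3) after a log2(TPM + 1) transform, with an intensity trend and Benjamini-Hochberg adjustment over all rows, with siRNA alone (main) or with the sample number as a block, and with an F test of number. Same-numbered samples deviated together (correlations 0.697, 0.353 and 0.507 over these rows), and since each is over 0.1 the numbers were taken to pair the samples. Numbers 2 and 3 were hardly told apart, with correlations of 0.345 and 0.248 across them. These are over 0.1 too, so the rule sets apart only the samples numbered 1. The pairing within numbers 2 and 3 rests on the labels alone. The fits were tested on simulated data. No 2 samples shared over 0.232% of values. Of the genes reported, values were described in every sample for members past the limits or an unadjusted p of 0.05 in either fit, with groups that do not overlap, among the 5 highest or the 5 smallest p by number, or named in the study. Other members described in every sample were chosen after their values were seen. Alternatives were another pseudocount, filter, scaling and trend, the block, and each sample left out. Of the identifiers, 84 had the same symbol in the RefSeq table of GRCr8, 1 another and 4 were not in it. The authors tested differences with edgeR 3.28.1 on values not used here.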

Additional observations from a re-analysis of the deposited data

How the results depend on the processing

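Among the 45 expressed members, 0 had an adjusted p under 0.05 for the siRNA in any of the 15 fits run with limma. Leaving out 1 sample at a time, the number of members lower by the limits of the study ranged from 0 to 2 (0 to 4.44%, against 1.2 to 2.54% of all rows) and that at an unadjusted p under 0.05 from 0 to 3 (0 to 6.67%, against 4.1 to 7.79%). The unadjusted call of *Hoxd1* was lost in 5 of these 6 fits, all but the one without siDerl1 sample 3, while its log2 fold change stayed between −0.68 and −0.49. With no filter on low values 1 member was higher and 4 were lower by the limits (*Vax1*, at 0 in siDerl1, among them), 5 of 67 had an unadjusted p under 0.05 (7.46%, against 6.62% of all rows), 5 differed by sample number (7.46%, against 4.61%) and 8 had groups that did not overlap (11.9%, against 12.2%). With a mean TPM of at least 5, 0 were lower and 0 had an unadjusted p under 0.05, because *Hoxd1* was no longer tested. The replicate block gave 4 lower by the limits and 5 at an unadjusted p under 0.05, or 2 higher, 6 lower and 10 without the filter (the 10 are 14.9%, against 13.2% of all rows), and 3 lower and 9 without an intensity trend (6.67% and 20%, against 2.95% and 12.8%). It changed no adjusted call. Without a trend 4 members differed by sample number (8.89%, against 2.44% of all rows), and the cause of the change from 10 was not tested. The number of expressed members stayed within 1.5 times of 45 in every setting run.

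In the 6 fits with a sample left out, the siRNA log2 fold change ranged from −0.35 to 0.11 for *Dlx1*, −0.71 to 0.24 for *Dlx2*, −1.02 to 0.80 for *Dlx3*, −0.30 to 0.14 for *Meis2*, −0.37 to 0.08 for *Msx1*, −1.54 to 0.84 for *Msx2* and −0.12 to 0.01 for *Pou3f2*, so these directions depended on single samples in the fit without the block, the positive end coming without siDerl1 sample 1 except for *Pou3f2*, where it came without siControl sample 2. For *Dlx5* it ranged from −0.65 to −0.01, the latter also without siDerl1 sample 1. Leaving out 1 sample in this fit leaves the numbers unequal between the groups, so these values also hold the difference between numbers. TPM keep no depth, so no counting error could be given.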
